A study of Homo sapiens with 4 samples.

Results

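The genes described here are 8 transcription factors that drive epithelial-mesenchymal transition (EMT) and 2 mesenchymal marker genes. They were chosen by symbol (ZEB1, ZEB2, SNAI1, SNAI2, TWIST1, TWIST2, PRRX1, FOXC2, VIM and CDH2), and all 10 were found once each among the 39635 entries of a table of read counts per gene. The table came from BEAS-2B, an established line of human bronchial epithelial cells, grown in N2B27 medium. A pair of libraries carried a short hairpin RNA against Fer (labelled Fer knockdown, called knockdown-labelled here) and another pair a control short hairpin RNA, and polyadenylated RNA was sequenced. The comparison asked whether the regulators moved with VIM and CDH2 when FER, a cytoplasmic tyrosine kinase, was targeted.

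In an EMT, epithelial cells give up cell-cell junctions and apical polarity and take on the filaments, cadherins and matrix of mesenchymal cells. The zinc finger proteins SNAI1, SNAI2, ZEB1 and ZEB2 and the helix-loop-helix proteins TWIST1 and TWIST2 bind DNA at E-boxes and repress epithelial genes such as CDH1, while the forkhead protein FOXC2 and the homeodomain protein PRRX1 act on mesenchymal programmes. VIM encodes the intermediate filament protein vimentin and CDH2 encodes N-cadherin, both standard readouts of the mesenchymal state.

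The knockdown-labelled libraries held 21422976 and 25169713 counts and the control libraries 21772587 and 22857051. FER itself had 404 and 535 counts in the knockdown-labelled libraries and 334 and 459 in control, with a fitted log2 fold change of 0.016 ± 0.17 (SE, adjusted p = 0.976, edgeR's quasi-likelihood test). FER mRNA goes against the knockdown label, so directions are given by label. Nothing in the labels says whether replicates were separate cultures; p-values therefore reflect the spread of these 4 libraries alone, and that spread may be technical. The median gene differed by 0.118 log2 units between the knockdown-labelled libraries and by 0.263 between the control libraries. Counts of the mitochondrial genome made up 9.62% and 9.37% of the knockdown-labelled libraries and 16.9% and 19.4% of control. Of 14 airway epithelial markers 10 were tested, with KRT8 at 1602 to 2094 CPM over the 4 libraries, but KRT5 and TP63 stayed under 0.6 CPM and the lung factor NKX2-1 was at 0. Levels are in CPM, counts scaled by library total and by TMM factors, which align the bulk of genes between libraries. Of 10 fibroblast markers 5 were tested; DCN and LUM were at 0, and the summed level was 355 to 390 CPM in the knockdown-labelled libraries and 575 to 608 CPM in control, most of it THY1. The part of other cells in the results was not tested, and in bulk RNA fewer cells of a type and less RNA per cell cannot be told apart. Summed endothelial, blood and neural markers reached at most 3.47, 25.2 and 3.32 CPM.

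Of the 10 genes, 6 were matched in the RefSeq table of start sites used here. The 250 bases before the start are shown for the genes that carry the contrast below: VIM and TWIST2, whose profiles over the libraries were close, and CDH2, ZEB1 and ZEB2, whose levels did not separate the groups. Capitals mark E-boxes, searched as CANNTG, which reads the same on both strands. That pattern was in 61.8% of 35116 such windows of the table, and CAGGTG or CACCTG, the form bound by SNAIL and ZEB proteins, in 17.5%. The windows shown for VIM, TWIST2 and CDH2 hold no CANNTG, which says only that these letters are not there, and the second CDH2 window holds 1. The third ZEB1 window of 7 is shown because it alone of these holds both a CACCTG and a CAGGTG; the first and seventh hold 2 CANNTG each, the fifth 1 and the other windows of ZEB1 0. The ZEB2 window holds one CACATG. Coordinates are GRCh38.p14, and sequences run 5′ to 3′ on the gene's strand.
VIM, chr10:17227991-17228240, plus strand: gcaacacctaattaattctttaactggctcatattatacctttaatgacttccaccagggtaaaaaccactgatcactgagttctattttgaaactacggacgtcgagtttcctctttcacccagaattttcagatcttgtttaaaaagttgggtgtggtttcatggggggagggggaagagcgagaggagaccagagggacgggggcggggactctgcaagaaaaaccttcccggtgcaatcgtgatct
TWIST2, chr2:238847835-238848084, plus strand: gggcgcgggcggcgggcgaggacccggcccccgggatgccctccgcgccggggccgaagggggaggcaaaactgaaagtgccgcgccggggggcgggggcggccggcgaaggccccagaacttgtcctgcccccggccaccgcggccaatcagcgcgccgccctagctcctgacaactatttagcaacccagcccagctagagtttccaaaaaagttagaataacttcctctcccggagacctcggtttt
CDH2, first of 2 windows, chr18:28177131-28177380, minus strand: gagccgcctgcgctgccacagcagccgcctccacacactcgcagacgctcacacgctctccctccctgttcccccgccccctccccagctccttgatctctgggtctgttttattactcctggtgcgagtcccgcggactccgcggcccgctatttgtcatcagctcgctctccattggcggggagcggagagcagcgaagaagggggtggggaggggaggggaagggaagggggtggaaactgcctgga
ZEB1, chr10:31318966-31319215, plus strand: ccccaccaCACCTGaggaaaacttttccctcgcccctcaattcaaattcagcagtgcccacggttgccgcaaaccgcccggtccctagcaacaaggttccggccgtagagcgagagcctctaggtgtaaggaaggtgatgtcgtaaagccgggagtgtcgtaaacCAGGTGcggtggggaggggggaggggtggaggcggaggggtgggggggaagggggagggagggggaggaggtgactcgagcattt
ZEB2, chr2:144520120-144520369, minus strand: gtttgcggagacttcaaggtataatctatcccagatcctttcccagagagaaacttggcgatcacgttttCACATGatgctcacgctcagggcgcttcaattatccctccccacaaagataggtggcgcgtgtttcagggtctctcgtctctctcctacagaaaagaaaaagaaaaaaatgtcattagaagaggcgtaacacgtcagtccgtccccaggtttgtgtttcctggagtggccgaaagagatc

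VIM was by far the most abundant of the 10 genes, and its level was lower in both knockdown-labelled libraries. Per kilobase of the length given in the table, VIM averaged 174 CPM per kilobase in the knockdown-labelled libraries and 262 in control. CDH2, TWIST1 and TWIST2 averaged 7.31, 7.01 and 5.10 CPM per kilobase in the knockdown-labelled libraries and 7.91, 8.78 and 7.34 in control. SNAI1, SNAI2 and FOXC2 lay between 2.29 and 2.76 CPM per kilobase in the knockdown-labelled libraries and between 3.50 and 4.11 in control. ZEB1 and ZEB2 averaged 1.35 and 0.382 CPM per kilobase in the knockdown-labelled libraries and 1.74 and 0.518 in control. CDH2 and TWIST1, and SNAI1, SNAI2 and FOXC2 as neighbours, overlapped in range within each group, as did CDH2 and TWIST2 in control, and the other neighbours in the order did not. The table gives CDH2 a length of 8583 bases, where GENCODE release 29 gives 4950; on the second length CDH2 averaged 12.7 CPM per kilobase in the knockdown-labelled libraries and 13.7 in control, above TWIST1.

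**Figure D1:**
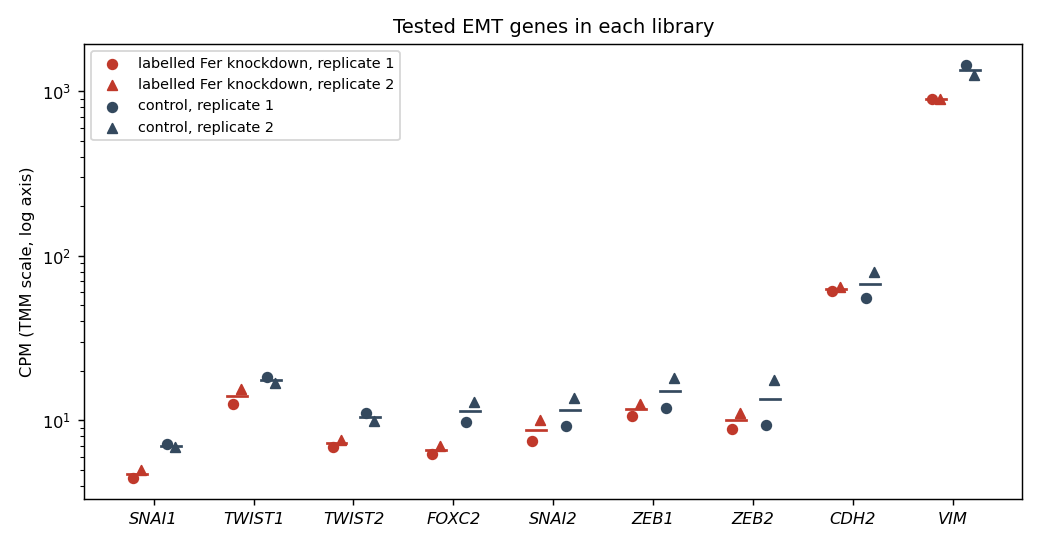
CPM on a log axis of the 9 tested genes in each library; circles are replicate 1, triangles replicate 2 and bars the group means. VIM lies near 900 CPM in both knockdown-labelled libraries and at 1256 CPM or more in control, while CDH2, ZEB1, ZEB2 and SNAI2 overlap between the groups.

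None of the regulators, nor either marker, passed an adjusted p of 0.05. PRRX1 had 0 and 0 counts in the knockdown-labelled libraries and 0 and 3 in control, and was the one gene too low to test. The other 9 genes were fitted with all 15336 tested genes, of which 99 (0.646%) passed, 43 higher and 56 lower. In edgeR's quasi-likelihood test 0 of 9 passed, and 4 of 9 lay below an unadjusted p of 0.05 with a lower level, where 8.77% of all tested genes did. DESeq2 and limma-voom each called 1 of the 9, VIM, of 580 and 178 genes they called over all tested. All 9 fitted log2 fold changes were below 0, with a median of -0.44. Over all tested genes 48.1% were below 0 and the median was 0.014. The members were chosen with earlier results of these data known, so these shares are no test of an excess. With library totals alone as the scale the median of all genes was 0.18, that of the 9 genes was -0.28, and CDH2 was above 0. The groups did not overlap in 5 of the 9 genes, as in 49.2% of all tested genes. In those 5 both knockdown-labelled libraries lay below both control libraries, as they did in 23.4% of all tested genes.

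**Figure D2:**
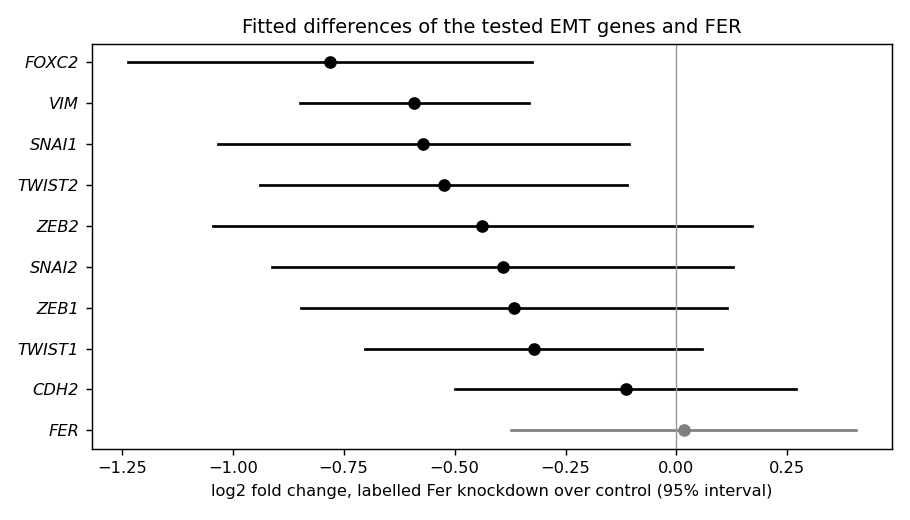
Fitted log2 fold changes, knockdown-labelled libraries over control, of the 9 tested genes and FER, with 95% intervals as lines. The intervals of FOXC2, VIM, SNAI1 and TWIST2 lie below 0, those of the other 5 genes and of FER include 0, and none passed after adjustment over all genes.

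Vimentin mRNA stood closest to the threshold among the 9 genes. VIM (ENSG00000026025, chromosome 10) had 903 and 896 CPM in the knockdown-labelled libraries, against 1455 and 1256 CPM in control. The knockdown-labelled libraries were nearly equal, and the groups did not overlap. The fitted log2 fold change was -0.59 ± 0.12 (SE, 95% interval -0.85 to -0.33, adjusted p = 0.0549 in edgeR). VIM was called under 8 of 14 alternatives, with adjusted p from 2.85e-05 to 0.0644 under the 10 that keep all 4 libraries. Left-out libraries moved the call: the value was -0.48 without control replicate 1 (adjusted p = 3.58e-14) and -0.71 without control replicate 2 (adjusted p = 4.96e-31), while it was -0.60 and -0.59, with an adjusted p of 0.529 and 0.717, without replicate 1 or 2 of the knockdown-labelled libraries. With the mitochondrial genome left out VIM was at -0.60 (adjusted p = 0.0573). Exons of VIM-AS1 and AL133415.1 overlap 24.4% of its exonic bases, and the strand setting is not given in the sources used here; VIM-AS1 held at most 0.147% as many counts as VIM.

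N-cadherin mRNA did not separate the groups, and these 4 libraries do not settle whether it moved with VIM. CDH2 (ENSG00000170558, chromosome 18) had 60.9 and 64.5 CPM in the knockdown-labelled libraries, against 55.7 and 80.1 CPM in control. Both knockdown-labelled libraries lay between the 2 control libraries. The log2 fold change was -0.11 ± 0.17 (SE, 95% interval -0.50 to 0.27, adjusted p = 0.783 in edgeR). This interval overlaps that of VIM, -0.85 to -0.33. Its direction depended on the control library: without control replicate 1 it was -0.35 and without control replicate 2 it was 0.15. With library totals alone it was 0.049 (adjusted p = 0.895). Within a library the log2 ratio of CDH2 to VIM counts was -3.89 and -3.80 in the knockdown-labelled libraries and -4.71 and -3.97 in control, so N-cadherin was higher relative to vimentin in both. The difference of 0.50 had an exact two-sided permutation p of 0.333, the smallest that 2 libraries against 2 can give. Without control replicate 1 that difference was 0.13.

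Of the 7 tested regulators, 4 separated the groups as VIM did, with the knockdown-labelled libraries lower. Over all tested genes 49.2% separated the groups in either direction, and 23.4% with the knockdown-labelled libraries lower. FOXC2 (ENSG00000176692, chromosome 16), a forkhead factor also needed for lymphatic vessels, had 6.25 and 7.003 CPM in the knockdown-labelled libraries, against 9.83 and 13.0 CPM in control. Both knockdown-labelled libraries lay under both controls, and control replicate 2 was the highest. Its log2 fold change, -0.78 ± 0.20 (SE, adjusted p = 0.0997 in edgeR), was the lowest of the 9 genes. Of the alternatives that keep all 4 libraries, FOXC2 was called with a length trend removed, a replicate block and no filter. These settings called 696, 990 and 993 genes over all tested. With library totals alone its adjusted p was 0.113 in edgeR. Without control replicate 1 FOXC2 was at -0.96 and without control replicate 2 at -0.59.

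SNAI1 (ENSG00000124216, chromosome 20), the SNAIL repressor of CDH1, had 4.45 and 4.97 CPM in the knockdown-labelled libraries, against 7.14 and 6.87 CPM in control. The counts behind these levels were 101 and 132 in the knockdown-labelled libraries and 146 and 149 in control. Each pair of libraries lay close together and the pairs were apart, and the log2 fold change was -0.57 ± 0.21 (SE, adjusted p = 0.194 in edgeR). SNAI1 was called under 0 of 14 alternatives, with edgeR, DESeq2 and limma-voom alike, and its unadjusted edgeR p was 0.0206.

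TWIST2 (ENSG00000233608, chromosome 2) had 6.91 and 7.64 CPM in the knockdown-labelled libraries, against 11.1 and 9.92 CPM in control, which in the fit was -0.52 ± 0.19 on the log2 scale (SE, adjusted p = 0.186 in edgeR). Its relative TWIST1 (ENSG00000122691, chromosome 7), a factor of cranial mesoderm, had 12.5 and 15.5 CPM in the knockdown-labelled libraries, against 18.2 and 16.8 CPM in control. For TWIST1 the gap between the groups was narrower than the gap inside the knockdown-labelled pair, and the log2 fold change was -0.32 ± 0.17 (SE, adjusted p = 0.361 in edgeR). Neither was called under an alternative that kept all 4 libraries. Without control replicate 2 the log2 fold change was -0.62 for TWIST2 and -0.40 for TWIST1.

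The other 3 tested regulators, ZEB1, ZEB2 and SNAI2, overlapped between the groups, as CDH2 did, with control replicate 2 high and control replicate 1 not. ZEB1 (ENSG00000148516, chromosome 10) had 10.7 and 12.6 CPM in the knockdown-labelled libraries, against 11.9 and 18.1 CPM in control. ZEB2 (ENSG00000169554, chromosome 2) had 8.89 and 11.1 CPM in the knockdown-labelled libraries, against 9.34 and 17.7 CPM in control. SNAI2 (ENSG00000019549, chromosome 8), the SLUG repressor, had 7.44 and 10.1 CPM in the knockdown-labelled libraries, against 9.29 and 13.7 CPM in control. In each of the 3 genes control replicate 1 lay within the range of the knockdown-labelled libraries. Their log2 fold changes were -0.37 ± 0.22 for ZEB1, -0.44 ± 0.27 for ZEB2 and -0.39 ± 0.23 for SNAI2 (SE, adjusted p = 0.414, 0.445 and 0.421 in edgeR), with intervals down to -0.85, -1.05 and -0.91. Without control replicate 1 the 3 genes were at -0.63, -0.82 and -0.64, beside -0.48 for VIM. Without control replicate 2 they were at -0.052, 0.078 and -0.10, beside -0.71 for VIM. How far they differ from VIM thus depended on the control library.

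Gene length moved with the difference between the control libraries. Over the 3834 tested genes of 7400 bases or more the median log2 ratio of control replicate 2 to control replicate 1 was 0.18, over the 3836 genes of up to 2920 bases it was -0.21, and the part of length in the results was not tested beyond the alternative given here. ZEB1 and ZEB2 are among the longest genes and had ratios of 0.60 and 0.92, as is CDH2 by the length in the table, with 0.52; by its GENCODE length of 4950 bases CDH2 falls in the class of 4843 to 7397 bases, whose median was 0.052. VIM, at 5176 bases, is in that class too and had a ratio of -0.21. SNAI1, TWIST1 and TWIST2 are among the shortest and had ratios of -0.055, -0.12 and -0.16. SNAI2, at 3281 bases, and FOXC2, at 2900, had 0.56 and 0.40, above the medians of -0.058 and -0.21 in their length classes. With a length trend removed from each library, an alternative added after seeing the data, ZEB1, ZEB2, SNAI2 and CDH2 were at -0.35, -0.37, -0.42 and -0.10, while VIM at -0.61 and FOXC2 at -0.82 passed (adjusted p = 0.0194 and 0.0440).

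**Figure D3:**
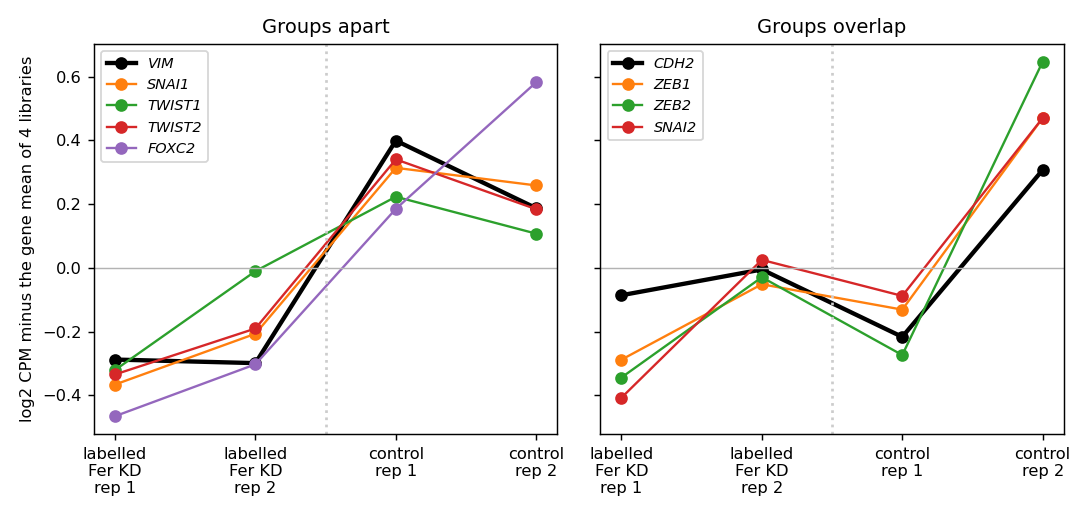
Log2 CPM of each gene minus its mean over the 4 libraries, with the knockdown-labelled libraries on the left of each panel and VIM or CDH2 as the thick line. SNAI1 and TWIST2 run close to VIM, and ZEB1, ZEB2 and SNAI2 peak with CDH2 in control replicate 2.

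Ratios within a library, which do not depend on the scaling between libraries, put the regulators beside the markers. The log2 ratio of SNAI1 to VIM was -7.66 and -7.49 in the knockdown-labelled libraries and -7.67 and -7.51 in control, a difference of 0.013. That of TWIST2 to VIM was -7.03 and -6.87 in the knockdown-labelled libraries and -7.04 and -6.98 in control, a difference of 0.061. The ratio to VIM overlapped between the groups for 6 of the 7 regulators. TWIST1 was the exception, at -6.17 and -5.85 in the knockdown-labelled libraries and -6.32 and -6.22 in control. The difference was 0.26 for TWIST1, 0.25 for ZEB1, 0.21 for ZEB2, 0.20 for SNAI2 and -0.18 for FOXC2. The SD between the control libraries was 0.58 for ZEB1, 0.80 for ZEB2, 0.54 for SNAI2 and 0.43 for FOXC2, against 0.068 for TWIST1. With controls so far apart, overlap does not show that a gene moved with VIM. Relative to CDH2, all 7 differences were below 0, from -0.68 for FOXC2 to -0.24 for TWIST1. For 5 regulators (FOXC2, SNAI1, TWIST2, SNAI2 and ZEB1) both knockdown-labelled libraries lay below both controls. These ratios share CDH2, at 55.7 and 80.1 CPM in control, as denominator, so they are not separate results. Such ratios were not taken for all tested genes, so no share stands beside the counts. FOXC2 to CDH2 was the clearest, at -3.28 and -3.20 in the knockdown-labelled libraries and -2.50 and -2.62 in control. Over the 15 ratios compared no exact two-sided permutation p was below 0.333, the smallest possible, and the lowest adjusted p was 0.714. Without one library the ratio to CDH2 of TWIST1 reached 0.080, and the ratios to VIM of ZEB1 and ZEB2 ran from -0.16 to 0.65 and from -0.35 to 0.78.

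**Figure D4:**
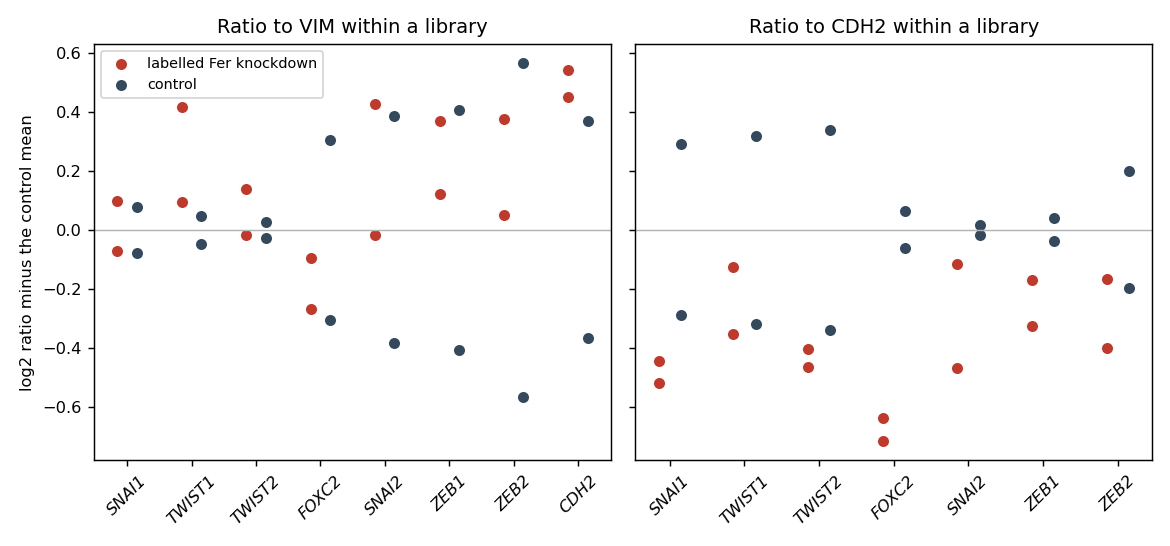
Log2 ratios of the regulators and CDH2 to VIM (left) and of the regulators to CDH2 (right) within each library, minus the control mean of that ratio; each dot is a library. SNAI1 and TWIST2 overlap around 0 in the VIM panel, and in the CDH2 panel the knockdown-labelled libraries lie below control for 5 regulators.

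Likeness of profile was measured as the root mean square difference of centred log2 CPM over the 4 libraries, a description over 4 points. Among 10956 genes with a mean of at least 5 CPM, HMGA1, CDKN3 and IGFBP5 were nearest to VIM (0.0146, 0.0164 and 0.0190), and EYA1, MAPK6 and ADGRL2 were nearest to CDH2 (0.00658, 0.0101 and 0.0147). TWIST2 and SNAI1 stood 0.0661 and 0.0823 from VIM, with 62 and 118 genes nearer. TWIST1 and FOXC2 stood 0.175 and 0.242 from VIM, with 901 and 2337 genes nearer. ZEB1, SNAI2 and ZEB2 stood 0.325, 0.331 and 0.430 from VIM, with 5029, 5224 and 8500 genes nearer. From CDH2, ZEB1, SNAI2 and ZEB2 stood at 0.139, 0.192 and 0.216, with 1940, 3851 and 4708 genes nearer, and VIM, at 0.361, was the farthest of the members with 9417 genes nearer.

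Among other transcription factors tied to EMT, 13 of those tested were below 0 and 5 above, where 48.1% of all tested genes were below 0. This list, like those that follow, was chosen with earlier results of these data known, so its counts are no test of an excess. Of 22 listed, 18 were tested and 1 fell in edgeR, where 0.365% of all tested genes fell. This was FOSL1, an AP-1 subunit, which had 139 and 126 CPM in the knockdown-labelled libraries and 206 and 233 CPM in control (log2 fold change -0.73 ± 0.13, SE, adjusted p = 0.0379 in edgeR). The list median was -0.073, beside 0.014 for all tested genes. Unadjusted, 5 were lower at p of 0.05, where 8.77% of all tested genes were. The next by p were the cold-shock protein gene YBX1 at -0.57 (adjusted p = 0.0508), the proliferation factor FOXM1 at -0.61 (adjusted p = 0.0552) and TBX3 at -0.44 (adjusted p = 0.207). DESeq2 (2 without an adjusted p) and limma-voom each called FOSL1, FOXM1 and YBX1 lower, of 331 and 103 lower over all 15336 tested genes. FOSL1 lost its call without replicate 1 or 2 of the knockdown-labelled libraries (adjusted p = 0.234 and 0.632), at log2 fold changes of -0.80 and -0.66. Corepressors and turnover enzymes of SNAIL, ZEB and TWIST proteins numbered 24, all tested, with a median of -0.021 and 0 called by edgeR. Unadjusted, 2 were lower and 4 higher at p of 0.05, where 8.77% of all tested genes were lower and 1373 of 15336 higher. DESeq2 called EED and LOXL2, and limma-voom called 0, of 580 and 178 genes they called over all tested. EED, a Polycomb subunit, had 36.0 and 39.8 CPM in the knockdown-labelled libraries and 24.5 and 25.3 CPM in control (0.61, adjusted p = 0.0777). LOXL2, a lysyl oxidase reported to bind SNAI1, had 556 and 572 CPM in the knockdown-labelled libraries and 762 and 755 CPM in control (-0.43, adjusted p = 0.0932). WTIP, of the Ajuba family of SNAIL partners, was at 0.42 and the ubiquitin ligase gene FBXO45 at 0.48 (adjusted p = 0.180 and 0.191).

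Among 30 other mesenchymal genes, 25 were tested, 3 fell and 0 rose in edgeR, where 0.365% of all tested genes fell. The list median was -0.35, with 19 genes below 0 and 6 above, where 48.1% of all tested genes were below 0. Unadjusted, 13 were lower and 2 higher at p of 0.05, where 8.77% of all tested genes were lower and 1373 of 15336 higher. The list was chosen with earlier results of these data known, so these counts are no test of an excess. The gelatinase gene MMP2 had 140 and 124 CPM in the knockdown-labelled libraries and 240 and 249 CPM in control (log2 fold change -0.90 ± 0.12, SE, adjusted p = 0.0182 in edgeR). THY1, a surface glycoprotein of fibroblasts and also in the fibroblast marker list, had 297 and 264 CPM in the knockdown-labelled libraries and 501 and 457 CPM in control (-0.77, adjusted p = 0.0302, 10.7% exon overlap). The matrix protein gene TGFBI was at -0.60 (adjusted p = 0.0461), and the ectonucleotidase gene NT5E at -0.63 (adjusted p = 0.0561). All 3 calls were lost without replicate 1 of the knockdown-labelled libraries (adjusted p = 0.0523 to 0.567) and without replicate 2 (0.306 to 0.684), and the call of TGFBI also with library totals alone (0.0549). Without replicate 1 and without replicate 2 the log2 fold changes were -0.99 and -0.81 for MMP2, -0.86 and -0.69 for THY1 and -0.60 and -0.61 for TGFBI. DESeq2 (2 without an adjusted p) called 8 of the list lower and limma-voom 4, of 331 and 103 lower over all 15336 tested genes. The list median was -0.17 without control replicate 2. The 2 genes higher at an unadjusted p of 0.05 were FSTL1 at 0.26 and COL3A1 at 1.39 (adjusted p = 0.276 and 0.248 in edgeR). COL3A1 had only 1.14 and 0.753 CPM in the knockdown-labelled libraries and 0.489 and 0.231 CPM in control. FN1, at -0.34, overlapped between the groups.

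Epithelial genes, which these factors repress in other systems, lay mostly above 0 without a call in edgeR, 19 above and 7 below. Over all 15336 tested genes 7959 were above 0. The 10 tested airway epithelial markers, some of them also in this list, lay 4 above 0 and 6 below, with a median of -0.014. Of 30 epithelial genes listed, 26 were tested and 0 passed in edgeR, with a median of 0.22. Unadjusted, 6 were higher and 1 lower at p of 0.05, where 1373 of 15336 tested genes were higher and 8.77% lower. DESeq2 called F11R higher and JUP lower (4 without an adjusted p), and limma-voom called 0, of 580 and 178 genes they called over all tested. CDH1, which encodes E-cadherin, had 9.78 and 10.5 CPM in the knockdown-labelled libraries and 7.53 and 7.33 CPM in control, which in the fit was 0.45 ± 0.18 on the log2 scale (SE, adjusted p = 0.239 in edgeR). The tight junction genes F11R, with 36.6% exon overlap, and TJP3 were at 0.51 and 0.92 (adjusted p = 0.0924 and 0.110), the plakoglobin gene JUP at -0.46 (adjusted p = 0.0960) and the polarity gene CRB3, at under 1 CPM, at 2.14 (adjusted p = 0.176). Of 15 factors that uphold the epithelial state 9 were tested, with a median of 0.19 and 0 called by edgeR, DESeq2 (2 without an adjusted p) or limma-voom. Unadjusted, 2 of the 9 were higher at p of 0.05, where 1373 of 15336 tested genes were. These were the splicing regulator ESRP2 at 0.50 and the factor ELF3 at 0.57 (adjusted p = 0.142 and 0.242), followed by KLF5 at -0.42 and GRHL3 at -0.23 (adjusted p = 0.466 and 0.489). With library totals alone the medians of the epithelial genes and factors were 0.39 and 0.36, beside 0.18 for all genes.

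Relatives of the markers gave no call. Of 15 other cadherin genes 8 were tested, 4 above 0 and 4 below, with a median of -0.058. Over all tested genes 48.1% were below 0. In edgeR, DESeq2 (2 without an adjusted p) and limma-voom 0 passed. Unadjusted, CDH1 was higher and CDH13 lower at p of 0.05 in edgeR, where 1373 of 15336 tested genes were higher and 8.77% lower. CDH13, a cadherin anchored by lipid, had 38.6 and 40.8 CPM in the knockdown-labelled libraries and 41.1 and 69.4 CPM in control, with the same high control replicate 2 as CDH2 (log2 fold change -0.48, adjusted p = 0.281). CDH24 and CDH3 were at -0.17 and 0.17 (adjusted p = 0.538 and 0.566). Of 12 other intermediate filament genes 9 were tested, 7 above 0 and 2 below, with a median of 0.21, where VIM was at -0.59. None was called by edgeR, DESeq2 (3 without an adjusted p) or limma-voom. Unadjusted, NEFH at -1.12 and NES at 0.53 (adjusted p = 0.253 and 0.267 in edgeR) were below p of 0.05, beside the same shares of all tested genes. SYNM and LMNB2 were at 0.28 and 0.20 (adjusted p = 0.386 and 0.411).

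**Figure D5:**
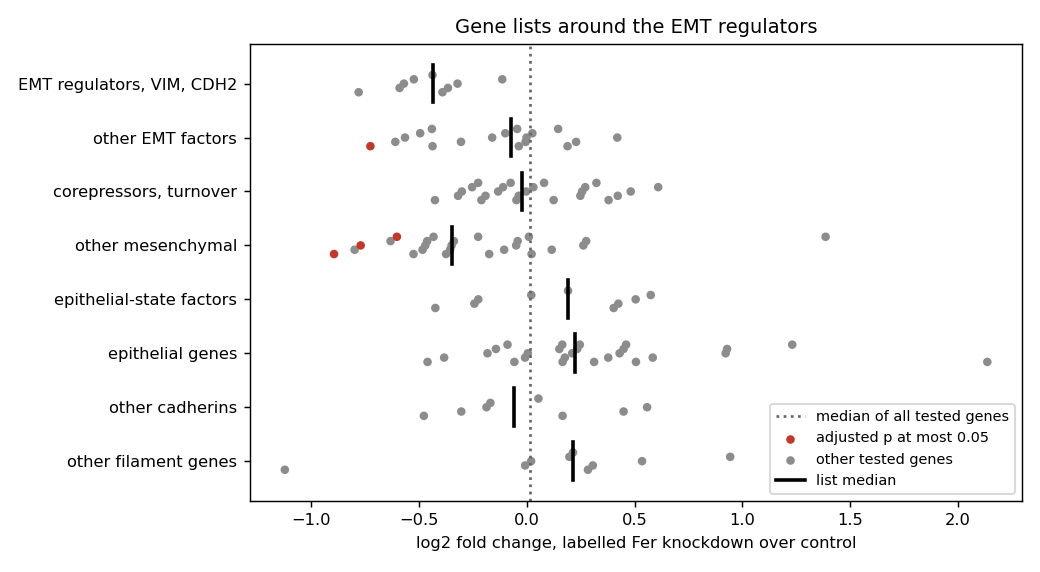
Log2 fold changes, knockdown-labelled libraries over control, of the tested genes of each list; each dot is a gene, thick bars are list medians and the dotted line is the median of all tested genes. The 9 EMT genes have a median of -0.44 with 0 called, the other mesenchymal genes -0.35 with 3 called, and the epithelial genes 0.22 with 0 called.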

How the data were processed

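The authors deposited raw read counts per gene with a gene length, per the file headers. HISAT2, featureCounts and DESeq2 and the builds hg19 and mm10 are named per the submitters' processing notes, without roles; strand setting and annotation: not given in the sources used here. Of 39635 entries, 1 held no values. The column of replicate 1 labelled Fer knockdown has a shortened name and was matched as the only such library with that number.

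The count test was that of edgeR 4.0.16, run in R 4.3.3 (filterByExpr defaults, TMM factors, quasi-likelihood test, two-sided, no block, 2 residual degrees of freedom), with Benjamini-Hochberg adjustment over all 15336 tested genes at 0.05. Each SE is the fold change over the root of its F statistic. Log2 CPM and ratios used a prior count of 0.5. GENCODE release 29, on another build than hg19, gave chromosomes and exon overlaps, and RefSeq (GRCh38.p14) gave upstream sequences.

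Alternatives were a replicate block, 3 other scalings, the mitochondrial genome left out, DESeq2 1.42.0, limma-voom (limma 3.58.1), 2 other filters, each library left out, and, added after seeing the data, a length trend removed (lowess, span 0.3). With a library left out, the lone library of its group is assumed to vary like the other pair. The scripts were tested on simulated data.

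The 10 members and the lists were chosen with earlier results of these data known. Named genes were the members, FER, and in each list the called genes and up to 4 with the smallest p (2 in marker lists), with the defining markers added. Likeness named the 3 nearest genes per marker. Replicates were compared: chi-square per degree of freedom was 5.35 between the libraries labelled Fer knockdown and 28.9 between the controls, so none was a copy.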

Additional observations from a re-analysis of the deposited data

How the results depend on the processing

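The count of called genes was 99 in the reported fit and 990 with the replicate number as a block, 192 with upper-quartile factors, 443 with library totals alone (396 higher and 47 lower), 580 in DESeq2, 178 in limma-voom, 993 with no filter, 696 with the length trend removed and 55 to 4793 with a library left out; with the mitochondrial genome left out 41 were higher and 35 lower. Of the 9 tested EMT genes, 0 were called in the reported fit, 2 with the block, with no filter and with the length trend removed (VIM and FOXC2 each time), 1 with upper-quartile factors, in DESeq2 and in limma-voom, and 0 to 6 with a library left out. Their median was -0.28 with library totals alone and -0.60 to -0.29 with a library left out. VIM passed at -0.59 with the block, -0.60 with upper-quartile factors, -0.60 in DESeq2, -0.59 in limma-voom, -0.59 with no filter and -0.61 with the length trend removed, and ran from -0.71 to -0.48 with a library left out. CDH2 was at 0.049 with library totals alone and ran from -0.35 to 0.15 with a library left out. ZEB2 ran from -0.82 to 0.078 with a library left out. The other 6 regulators stayed below 0 under all 14 alternatives, and with a prior count of 2 the 15 ratios moved by less than their spread between replicates. With 2 libraries a group, leaving out a library moves a ratio by no more than that spread by construction, so it says nothing about the ratios' stability. Replicate numbers pair no samples by the labels, and same-numbered libraries deviated together only weakly (correlation of 0.0443 over genes), so the block results are given here alone. Calls without a control library rest on the close knockdown-labelled pair for their spread. The tested regulators rest on 101 to 412 counts per library, and CDH2, at 1138 to 1736 counts, still had an SE of 0.17. Moderate changes in the regulators may thus not be detectable at this depth and this spread between libraries, with 2 libraries a group.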

Other observations

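Antisense partners of the EMT genes were read from the same table. ZEB1-AS1, which shares 9.55% of its exonic bases with other genes, had 54 and 60 counts in the knockdown-labelled libraries and 88 and 88 in control, a log2 fold change of -0.85 (adjusted p = 0.137 in edgeR), and so separated the groups where ZEB1 did not; without strand its reads cannot be told apart from those of ZEB1 in the shared bases. VIM-AS1 had 25 and 35 counts in the knockdown-labelled libraries and 33 and 17 in control (log2 fold change 0.022, adjusted p = 0.987). ZEB2-AS1 had 0 and 2 counts in the knockdown-labelled libraries and 0 and 4 in control. MIR200CHG, the host of microRNAs that target ZEB1 and ZEB2, had 0 counts in all 4 libraries, which allows up to 0.147 CPM in the library with the fewest effective counts. KRT17, first by p among the airway markers, had 40.5 and 43.7 CPM in the knockdown-labelled libraries and 27.4 and 22.0 CPM in control (log2 fold change 0.77, adjusted p = 0.0552 in edgeR). ITGB4 was at -0.44 (adjusted p = 0.0950), and among fibroblast markers THY1 at -0.77 (adjusted p = 0.0302) was followed by COL1A1 at -0.46 (adjusted p = 0.112). The other tested fibroblast markers were COL3A1 at 1.39 (adjusted p = 0.248, under 1.2 CPM in every library), TCF21 at -0.36 and PDGFRB at 0.0093 (adjusted p = 0.790 and 0.985). DESeq2 called KRT17 higher and ITGB4, THY1 and COL1A1 lower, and limma-voom KRT17 higher and THY1 lower, of 580 and 178 genes they called over all tested. The endothelial TIE1 and VWF were at 0.80 and -0.53 (adjusted p = 0.435 and 0.754), the monocyte marker CD14 at -0.27 (adjusted p = 0.546), and the neural RBFOX3 and GFAP at -0.59 and 0.21 (adjusted p = 0.632 and 0.828).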
